A study of Mus musculus with 18 samples.

Results

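The 8 genes described here are Nr3c1, Fkbp5, Tsc22d3, Per1, Zbtb16, Sgk1, Hsd11b1 and Klf9, the receptor for glucocorticoids and 7 genes that respond to the hormone or supply it. They were chosen by name and make up 8 of the 32285 genes in each count matrix, and all 8 were found in all 10 mRNA libraries. The cells came from the skin of mice in which stretch was applied from below. All mice, controls included, had surgery with an incision near the tail and a path made under the skin to the neck, so every group here is operated skin. Expanded mice received a hydrogel expander under the skin and control mice received none. Skin was taken on day 1, 2 or 4. Each arm had 5 mRNA libraries, from day 1 in sequencing rounds 1 and 2, day 2 in rounds 1 and 2, and day 4 in round 1. All mice of 1 arm and round were pooled in 1 tube, so arm and reaction cannot be told apart within a round. Antibody hashtags separated 14 mice per arm in 8 of the libraries, 3 of day 1, 7 of day 2 and 4 of day 4.

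Glucocorticoids enter cells by diffusion and bind the receptor encoded by Nr3c1, which is held in the cytoplasm by heat shock proteins and their co-chaperones. The bound receptor moves to the nucleus, binds DNA at glucocorticoid response elements and raises or lowers transcription. Hsd11b1 encodes the enzyme 11beta-hydroxysteroid dehydrogenase type 1, which turns the inactive 11-keto hormone into the active one inside the cell. Fkbp5 encodes a co-chaperone that lowers the receptor's affinity for hormone and is itself induced by it. Tsc22d3 (GILZ), Sgk1, Per1, Zbtb16 and Klf9 are widely used readouts of receptor activity. In skin, glucocorticoids are known for restraining inflammation, keratinocyte growth and collagen production.

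Promoters of 5 of the genes are printed to show which of them hold a glucocorticoid motif near the start and which hold clock or cyclic AMP motifs. Each is the 250 bases before a RefSeq transcript start (GRCm38.p6), 5′ to 3′ on the strand of the gene. Capitals mark matches, on either strand, to the glucocorticoid receptor hexamer AGAACA, the E-box CACGTG bound by clock factors, and the CRE core TGACG of cyclic AMP response.
Sgk1, chr10:21993640-21993889, plus strand: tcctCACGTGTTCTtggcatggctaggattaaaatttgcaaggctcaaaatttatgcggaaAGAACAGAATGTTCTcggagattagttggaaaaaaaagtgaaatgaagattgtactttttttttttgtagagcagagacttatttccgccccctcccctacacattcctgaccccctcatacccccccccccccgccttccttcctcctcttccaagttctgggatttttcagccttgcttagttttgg
Per1, chr11:69098699-69098948, plus strand: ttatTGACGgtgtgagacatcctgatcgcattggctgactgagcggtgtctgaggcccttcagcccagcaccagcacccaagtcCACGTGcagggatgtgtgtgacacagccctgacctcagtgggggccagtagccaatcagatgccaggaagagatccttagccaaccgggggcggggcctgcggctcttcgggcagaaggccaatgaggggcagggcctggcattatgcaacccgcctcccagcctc
Klf9, chr19:23140976-23141225, plus strand: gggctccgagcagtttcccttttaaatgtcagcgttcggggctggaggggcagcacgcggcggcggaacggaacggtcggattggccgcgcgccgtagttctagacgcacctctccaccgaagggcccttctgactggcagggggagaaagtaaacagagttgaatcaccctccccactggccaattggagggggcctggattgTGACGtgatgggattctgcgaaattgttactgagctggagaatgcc
Fkbp5, chr17:28486150-28486399, minus strand: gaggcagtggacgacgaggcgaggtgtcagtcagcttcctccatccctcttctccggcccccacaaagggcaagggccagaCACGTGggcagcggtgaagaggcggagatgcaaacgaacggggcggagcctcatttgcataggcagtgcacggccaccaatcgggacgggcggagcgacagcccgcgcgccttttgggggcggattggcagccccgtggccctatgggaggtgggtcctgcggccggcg
Tsc22d3, chrX:140600523-140600772, minus strand: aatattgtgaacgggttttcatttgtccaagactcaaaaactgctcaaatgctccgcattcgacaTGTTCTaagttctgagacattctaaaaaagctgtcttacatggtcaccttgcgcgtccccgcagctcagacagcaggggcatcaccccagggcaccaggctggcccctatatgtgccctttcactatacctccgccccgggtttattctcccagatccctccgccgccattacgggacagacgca
RefSeq gives 6 starts for Sgk1, and the printed window is the 1 that held a glucocorticoid palindrome, which is the hexamer, 3 bases and its reverse complement, at 189 bases before the start. Of the other 5 windows of Sgk1, 2 held a single hexamer, at 195 and 13 bases, 1 a CRE core at 236 bases and 2 none of the motifs. Only 3 of 32851 promoters of this length held that palindrome, 0.00913%. A further hexamer in the printed Sgk1 window overlapped its E-box. Tsc22d3 had 1 hexamer in the printed window, 185 bases before the start, and none in the windows of its other RefSeq starts. Of all promoters, each counted as a single window, 16.1% held at least 1. Fkbp5 and Per1 each had an E-box, at 169 and 166 bases before the start, against 6.02% of all promoters. Per1 and Klf9 each had a CRE core, at 246 and 46 bases before the start, against 17.8% of all promoters. A further Per1 start had a CRE core at 132 bases, a further Tsc22d3 start 1 at 224 bases, and the Hsd11b1 window held none of the motifs. These matches describe the letters in the windows only. Known response elements of several of these genes lie in introns or farther upstream, outside the windows.

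In GRCm38 coordinates the genes lie on 8 chromosomes. Nr3c1 (ENSMUSG00000024431) is at chr18:39410545-39519421 on the minus strand and Hsd11b1 (ENSMUSG00000016194) at chr1:193221634-193264075 on the minus strand. Fkbp5 (ENSMUSG00000024222) is at chr17:28399094-28517527 and Tsc22d3 (ENSMUSG00000031431) at chrX:140539528-140600659, both on the minus strand. Sgk1 (ENSMUSG00000019970) is at chr10:21882184-21999903 on the plus strand and Per1 (ENSMUSG00000020893) at chr11:69095217-69109960 on the plus strand. Zbtb16 (ENSMUSG00000066687) is at chr9:48654297-48836222 on the minus strand and Klf9 (ENSMUSG00000033863) at chr19:23141226-23168134 on the plus strand. On the strand of the gene, Fkbp5 is overlapped by the annotated transcripts AC154912.5 and AC154912.3, Hsd11b1 by Gm38118 and Klf9 by Mir1192, so how counting divided UMIs between them is uncertain. Lamb3, a laminin gene of keratinocytes, overlaps Hsd11b1 on the opposite strand, as does 4930570N18Rik, and AC154912.1 and Gm22146 lie opposite Fkbp5.

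After filters and removal of doublets, 45488 cells remained, 28452 of control and 17036 of expanded skin. Libraries held 17726739 to 75470722 gene UMIs (unique molecular identifiers, 1 per captured mRNA molecule), and median UMIs per cell ran from 6440.5 to 12847.5. The cells fell into 39 clusters, of which 32 were named from marker genes in 19 classes, written below as X-like cells, and 7 stayed unnamed and are called by their leading genes. The cluster that the marker rule named Langerhans-like is here called the Ccl22 Cd207 cluster, and is counted among the 12 named classes tested. It also held 8 dendritic markers, and finer clustering gave a cluster led by Cd207 and Xcr1 and a cluster led by Ccl22 and Ccr7, genes of dendritic cells. Levels are UMIs per 1000000 gene UMIs (CPM) of a class summed in 1 library, given as mean ± SD over libraries. The fold changes are edgeR log2 fold changes, expanded over control, with their standard errors (SE). A gene was called when its quasi-likelihood p, adjusted by Benjamini-Hochberg over all genes tested in the class, was under 0.05. Fold changes use TMM scaling and CPM do not, so the 2 can differ. In fibroblast-like cells the plain difference in log2(CPM + 1) was -0.45 for Klf9 and -0.25 for Nr3c1 where the fitted values were -0.66 and -0.46, and for Fkbp5 it was 0.08 where the fitted value was -0.11. Median UMIs per cell were higher in expanded skin in the classes with calls below, for example 5149 in control and 9575 in expanded endothelial-like cells, and in fibroblast-like cells 10536 and 14574.

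In control skin the 8 genes had separate patterns over 22 classes and unnamed clusters with at least 3 libraries, a description without a test. Nr3c1 was highest in T-like cells, gamma delta T-like cells and 1 unnamed cluster. It stood at 765 ± 233 CPM (n = 3) in T-like cells, 667 ± 228 (n = 4) in the unnamed cluster led by Ctla4 and Tnfrsf4, and 572 ± 129 (n = 5) in gamma delta T-like cells, and these libraries overlapped. Within gamma delta T-like cells it was at 889 ± 136 in cluster 19 and 192 ± 36.2 in cluster 17. Innate lymphoid-like cells, at 214 CPM, lay below dermal papilla-like (337) and muscle-like cells (262). The lowest levels of the receptor were in the Ccl22 Cd207 cluster (52.6 ± 14.4, n = 5) and dendritic-like cells (57.7 ± 4.83, n = 5), whose ranges also overlapped. Hsd11b1 was highest in the unnamed cluster led by Coch and Fmod, at 324 ± 75.4 CPM (n = 5), and that cluster's lowest library (243) was above the highest (216) of the next, muscle-like cells. Hsd11b1 followed at 135 ± 18.4 (n = 3, from 25 UMIs) in neutrophil-like, 129.9 ± 15.4 in innate lymphoid-like and 87.5 ± 32.6 in fibroblast-like cells. The Ccl22 Cd207 cluster and mast-like cells held 4 and 1 UMIs of it in all.

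Klf9 was highest in dermal papilla-like cells (1481 ± 228 CPM, n = 3), which did not overlap Schwann-like cells (956 ± 226, n = 4). The next 4 classes, ending with fibroblast-like cells at 811 ± 89.1, overlapped each other. Innate lymphoid-like (43.1 ± 14.7) cells and the Ccl22 Cd207 cluster (43.3 ± 22.4) held least Klf9. Sgk1, a kinase that controls ion transport and survival, was at 734 ± 110 (n = 3) in muscle-like and 699 ± 202 (n = 5) in lymphatic-like cells, and lowest in macrophage-like cells (53.3 ± 16.99). Tsc22d3, which encodes a leucine zipper protein that blocks inflammatory signalling, was highest in mast-like (301 ± 121), innate lymphoid-like (294 ± 67.6) and T-like cells (289 ± 92.7), and lowest in the unnamed cluster led by Krt25 and Krt28 (17.7 ± 11.6). Per1 ran from 16.8 ± 2.84 in that cluster to 68.0 ± 12.0 in gamma delta T-like cells. Fkbp5 ran from 5.87 ± 3.69 in suprabasal-like to 42.2 ± 8.201 in dermal papilla-like cells. Zbtb16, the transcription factor PLZF of innate-like lymphocytes, was at 70.4 ± 23.3 in gamma delta T-like cells, a mean of cluster 19 (led by Il17f and Il17a) at 129 ± 29.7 and cluster 17 (led by Trdc and Cd7) at 0.854 ± 1.91 (3 UMIs). No UMI of Zbtb16 was counted in the Ccl22 Cd207 cluster. UMI counts from the 3′ end are not corrected for transcript length, so levels are compared within a gene only.

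**Figure D1:**
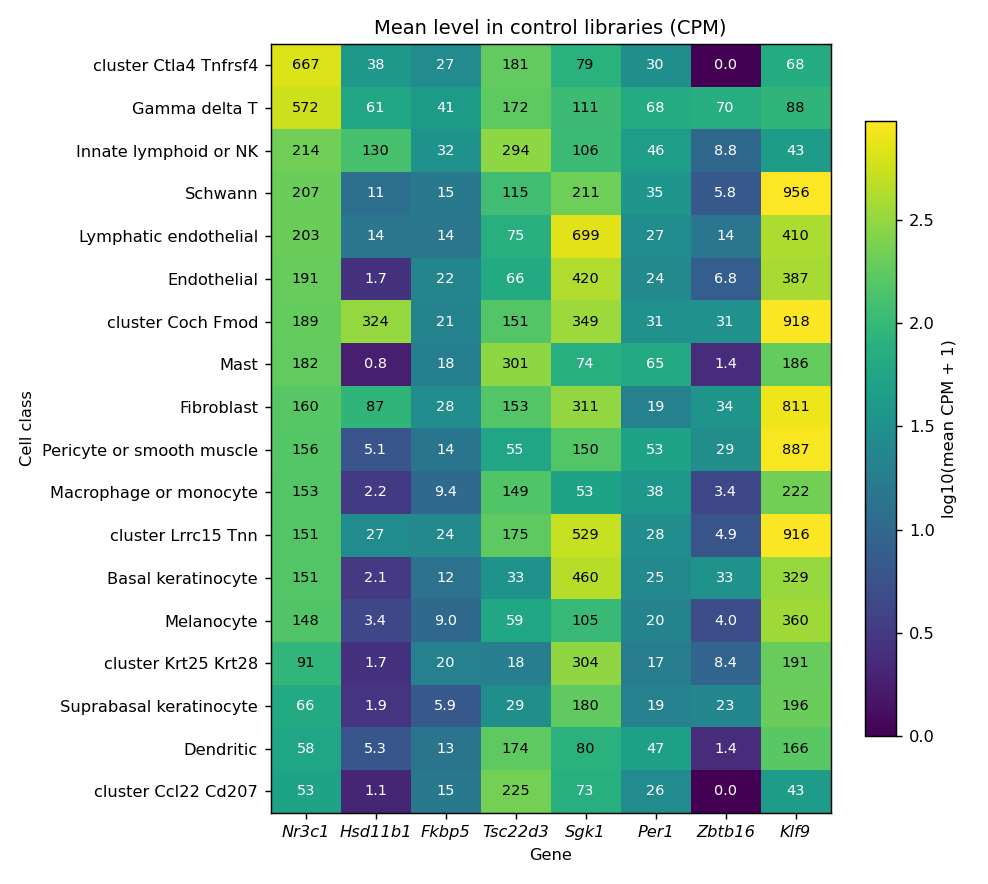
Heat map of the mean level in control libraries, in CPM (numbers) and log10(mean CPM + 1) (colour), of the 8 genes by cell class, for classes and unnamed clusters with at least 4 libraries. Nr3c1 was high in gamma delta T-like cells, Hsd11b1 in the Coch Fmod cluster and Klf9 in Schwann-like cells and the Coch Fmod and Lrrc15 Tnn clusters.

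Expansion moved the genes in different directions. In fibroblast-like cells 5 of 8 genes were called, Hsd11b1 higher and Nr3c1, Tsc22d3, Zbtb16 and Klf9 lower, beside 34.8% of all genes tested there. In macrophage-like cells 4 of 8 were called, Sgk1 and Hsd11b1 higher and Zbtb16 and Klf9 lower, beside 21.9% of all genes. Lymphatic-like cells had 3 of 8, with Fkbp5 higher and Nr3c1 and Klf9 lower, beside 10.2%. Endothelial-like (2 of 7 tested, 11% of all genes) and pericyte-like cells (2 of 7, 15.7%) each had Fkbp5 higher and Klf9 lower. Klf9 alone was called in basal keratinocyte-like (1 of 8, 14%) and dendritic-like cells (1 of 7, 6.33%). Hsd11b1 alone was called in the unnamed clusters led by Coch and Fmod (1 of 8, 9.69%) and by Lrrc15 and Tnn (1 of 7, 2.94%).

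None of the 8 was called by edgeR in gamma delta T-like, innate lymphoid-like cells, the Ccl22 Cd207 cluster, melanocyte-like or Schwann-like cells, where 0.223%, 0.501%, 4.43%, 1.56% and 0.355% of all genes were called. At an unadjusted p under 0.05 the counts there were 4, 1, 2, 2 and 1, and DESeq2 called 1 in gamma delta T-like cells, Zbtb16, and 0 in the other classes. The unnamed clusters led by Ctla4 and Tnfrsf4 and by Krt25 and Krt28 had no edgeR or DESeq2 call either, beside 0% and 2.47% of all genes, with 1 and 3 of the 8 at an unadjusted p under 0.05. Over all cells of a library, which mixes changes in level with changes in cell make-up, Klf9 and Tsc22d3 were lower, 2 of 8 beside 25.2% of all genes.

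**Figure D2:**
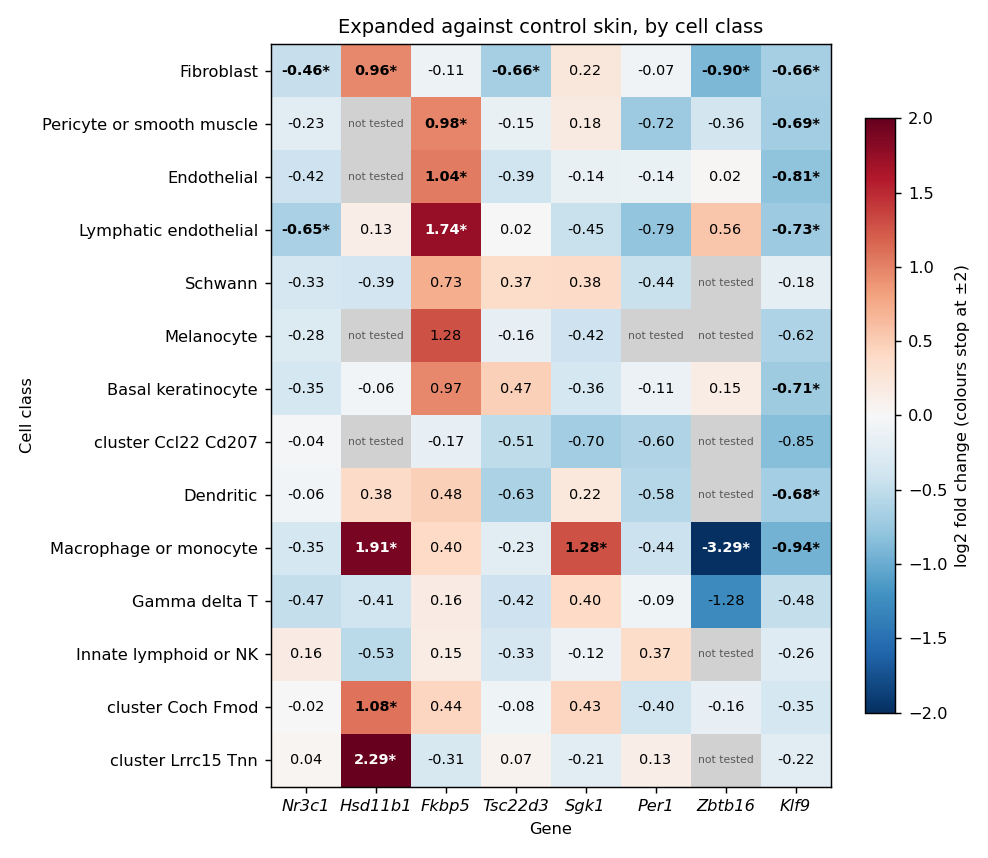
Heat map of the edgeR log2 fold change, expanded over control, of the 8 genes in the 12 named classes and 2 unnamed clusters. Stars mark calls and grey cells genes too low to test. The Klf9 column is negative throughout, and Fkbp5 has stars in the endothelial, lymphatic endothelial and pericyte rows.

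Nr3c1, the receptor, was lower in expanded skin where it was called. In fibroblast-like cells the 5 control libraries held 172, 163, 163, 144 and 159 CPM and the expanded libraries 178, 140.3, 132, 111 and 122, in the order day 1 rounds 1 and 2, day 2 rounds 1 and 2, and day 4. The groups overlapped through the expanded library of day 1 round 1, which was the highest of all, and the other 4 expanded libraries lay below all controls. The fold change was -0.46 (SE 0.12, adjusted p = 0.0112, edgeR). In lymphatic-like cells controls ran from 162 to 238 and expanded libraries from 116 to 169.7 CPM, with an overlap at the edge and a fold change of -0.65 (SE 0.16, adjusted p = 0.0190, edgeR). That call was lost without either day 4 library (adjusted p = 0.0776 and 0.0806), without control day 2 round 2 (0.0603) and without expanded day 1 round 2 (0.0507). In endothelial-like cells the value of -0.42 missed the threshold (adjusted p = 0.0514), and with sequencing round as a block it passed, at -0.41 (adjusted p = 0.0263), beside 14.8% of all genes. Nr3c1 was negative in 11 of 12 named classes, with values from -0.65 to 0.16, and was called in 2. The classes come from the same libraries, and how many of all genes had such a count was not computed. Mean CPM, without TMM scaling, was higher in expanded skin in dendritic-like cells (57.7 and 63.2), the Ccl22 Cd207 cluster (52.6 and 61.4) and innate lymphoid-like cells (214 and 251). It was lower in the other named classes tested.

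The fibroblast-like class changed its make-up between the arms, which stands beside all its results. Cluster 0 (led by B830012L14Rik and Col1a2) made up 34.4% of control and 6.41% of expanded fibroblast-like cells, and cluster 2 (led by Ccl19 and Tnc) 16.1% and 35.7%. Cluster 18 went from 9.30% to 1.82%, cluster 20 (led by Mme and Igfbp2) from 4.63% to 15.3%, and cluster 28 (led by Apod and Ccl11) from 2.43% to 12.4%. Within cluster 2 alone Nr3c1 was -0.61 (adjusted p = 0.0162), Klf9 -0.68 (0.00507), Tsc22d3 -1.21 (0.00103) and Zbtb16 -0.97 (0.0488), all lower, beside 24.8% of all genes called there. Within cluster 20 alone (13.9% of all genes called) none of these 4 passed, at -0.40, -0.19, -0.47 and -0.12. In cluster 8 alone none of the 8 genes was called, and in cluster 28 Hsd11b1 was the single call, so each of the 4 lower genes passed in 1 of the 4 clusters that could be fitted alone. The part of make-up in the class values was not tested further.

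Hsd11b1, the activating enzyme, was higher in fibroblast-like and macrophage-like cells and in the unnamed clusters led by Coch and Fmod and by Lrrc15 and Tnn. In the cluster led by Coch and Fmod, control libraries held 263, 243, 314, 385 and 417 CPM and expanded libraries 725, 763, 718, 601 and 645. The groups were far apart on every day, with a fold change of 1.08 (SE 0.15, adjusted p = 0.00104, edgeR). In the cluster led by Lrrc15 and Tnn, controls held 15.1 to 43.8 and expanded libraries 104 to 194 CPM, a fold change of 2.29 (SE 0.23, adjusted p = 3.61e-05). In fibroblast-like cells, controls held 121, 65.2, 49.2, 121 and 81.0 and expanded libraries 155, 216, 220.1, 162 and 238, again with no overlap. The fold change there was 0.96 (SE 0.25, adjusted p = 0.0133, edgeR), and the call was lost without the control (adjusted p = 0.0509) or the expanded day 4 library (0.0507).

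In control skin the enzyme was at 305 ± 56.4 CPM (n = 5) in cluster 20, whose share of fibroblast-like cells grew, and at 55.9 ± 34.0 (n = 5) in cluster 0, whose share shrank. Cluster 28 alone gave 1.497 (adjusted p = 0.00714, beside 5.77% of all genes called), and clusters 2 and 20 gave 0.65 and 0.36 (adjusted p = 0.105 and 0.144, edgeR). In macrophage-like cells levels were low, at 1.15 to 3.84 CPM in controls (46 UMIs in all) and 6.07 to 11.3 in expanded libraries (250 UMIs). These groups did not overlap, and the fold change was 1.91 (SE 0.36, adjusted p = 0.00611, edgeR). The summed level of 6 fibroblast genes (Col1a1, Col1a2, Col3a1, Sparc, Dcn and Lum) in macrophage-like cells, a measure of free fibroblast RNA, was 414 to 5233 CPM in controls (median 1931) and 42.4 to 578 in expanded libraries (median 207), and all 6 genes were lower. Neutrophil-like cells, 108 in control and 1211 in expanded skin, held 129 ± 40.9 CPM of Hsd11b1 in expanded libraries (n = 5). The part of free RNA from either in the macrophage value was not tested. Cluster 5 (led by Chil3 and Ms4a4c) grew from 18.9% to 69.8% of macrophage-like cells, cluster 9 (led by Ccl8 and Cd209f) shrank from 51.8% to 4.54%, and within cluster 5 alone, where 2.37% of all genes were called, Hsd11b1 gave 2.25 (adjusted p = 0.0585). In single mice of cluster 5 (8 control and 11 expanded) Hsd11b1 was called higher by edgeR, and the share of all genes called in that comparison is not given here. Mice of a pool share a reaction, so that call does not measure spread between reactions.

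**Figure D3:**
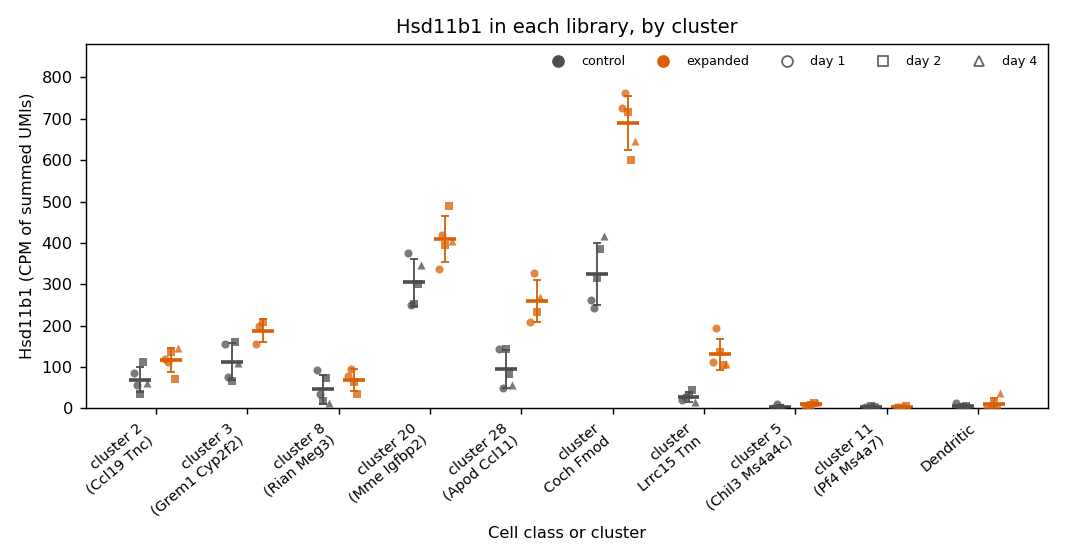
Hsd11b1 level in CPM per library by cluster, control in grey and expanded in orange. Points are libraries with day as the marker shape, and bars are mean ± SD. In the Coch Fmod and Lrrc15 Tnn clusters and in cluster 28 all expanded libraries lie above all controls.

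Fkbp5, the co-chaperone, was higher in endothelial-like, lymphatic-like and pericyte-like cells. In endothelial-like cells control libraries held 27.1, 21.4, 14.9, 23.5 and 22.3 CPM and expanded libraries 61.2, 51.0, 43.5, 55.3 and 39.2. No expanded library reached down to a control, and the fold change was 1.04 (SE 0.16, adjusted p = 0.00271, edgeR). In lymphatic-like cells controls held 23.9, 14.7, 9.55, 13.8 and 8.67 CPM (34 UMIs) and expanded libraries 63.0, 50.1, 37.3, 73.4 and 33.4 (203 UMIs). These groups were also apart, with a fold change of 1.74 (SE 0.28, adjusted p = 0.00174), the highest value of Fkbp5 among the 12 named classes. The 6 fibroblast genes summed to 1346 to 16832 CPM (median 11465) in control and 362 to 12187 (median 704) in expanded lymphatic-like cells, with 5 of 6 lower, and their part in the lymphatic results was not tested.

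In pericyte-like cells Fkbp5 ran from 2.70 to 22.9 CPM in controls and from 19.2 to 49.0 in expanded libraries, which overlapped. The fold change of 0.98 (SE 0.27, adjusted p = 0.0292, edgeR) lost its call in 5 of the 10 fits that left out 1 library, with adjusted p from 0.0510 to 0.0625: control day 1 round 1, control day 2 round 2, expanded day 1 round 2 and both expanded day 2 libraries. In basal keratinocyte-like cells the control libraries held 17.5, 17.01, 0, 13.9 and 11.3 CPM and the expanded libraries 64.8, 24.5, 21.7, 18.2 and 14.9. The library at 0 had 49 such cells. The value of 0.97 missed the threshold (adjusted p = 0.0606, edgeR) and passed with the round as a block, at 0.92 (adjusted p = 0.0482), beside 17.1% of all genes. In fibroblast-like cells Fkbp5 stood at 27.8 ± 4.84 and 31.0 ± 13.2 CPM (n = 5 each; -0.11, adjusted p = 0.663, edgeR), while in cluster 20 alone it was higher, at 1.37 (SE 0.30, adjusted p = 0.00499). In the cluster led by Krt25 and Krt28, the blocked fit called Fkbp5 (1.16, adjusted p = 0.0409), Tsc22d3 (1.48, 0.0129) and Zbtb16 (1.92, 0.0496) higher, beside 10.2% of all genes, and none of the 3 passed without the block. In 10 of 12 named classes Fkbp5 was positive. The classes share libraries, and the share of all genes with such a count was not computed.

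**Figure D4:**
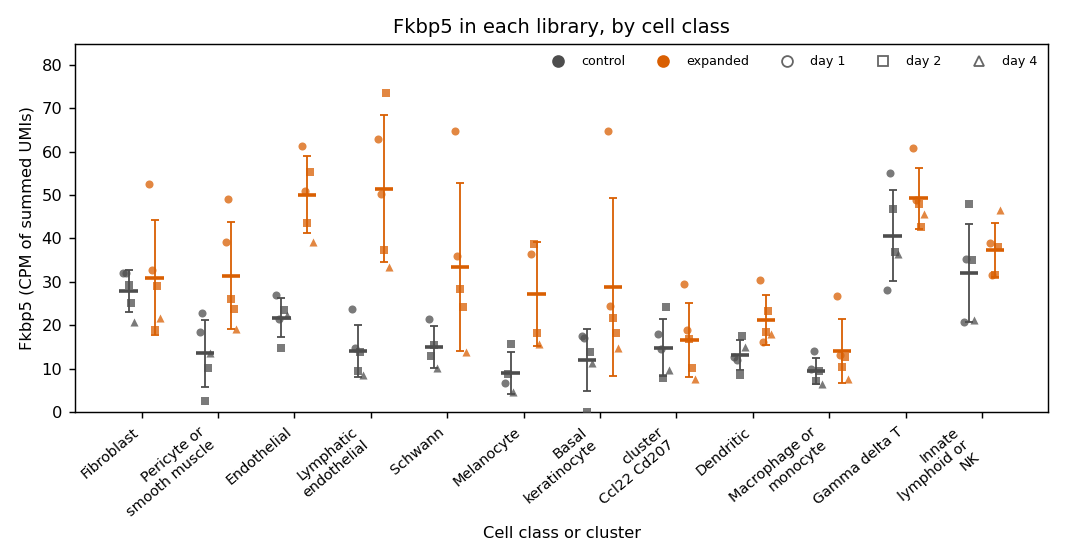
Fkbp5 level in CPM per library in the 12 named classes, control in grey and expanded in orange. Points are libraries with day as the marker shape, and bars are mean ± SD. In endothelial-like cells the expanded libraries sit between 39.2 and 61.2, above all controls at 14.9 to 27.1.

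Klf9, a zinc finger repressor that slows keratinocyte growth, had the most uniform direction of the genes described here over the named classes. It was negative in all 12 named classes, from -0.94 to -0.18, and was called lower in 7. Of 4157 genes tested in all 12 classes, 3.56% were negative in all and 0.481% (20 genes) were called lower in at least 7. Unnamed clusters were outside these counts. In the cluster led by Krt25 and Krt28 Klf9 ran from 160 to 259 CPM in control and 164 to 267 in expanded libraries. In that led by Ctla4 and Tnfrsf4 it ran from 53.7 to 81.8 and from 47.1 to 79.6. No clear fall was seen in either, while the mean was lower in the cluster led by Coch and Fmod, as given below. In basal keratinocyte-like cells controls held 356, 347, 376, 257 and 311 CPM and expanded libraries 251, 208, 182, 152 and 242. The 2 groups did not overlap (-0.71, SE 0.14, adjusted p = 0.00794, edgeR). The change was seen in cluster 10 (led by Krt5 and Krt14) at -1.04 (adjusted p = 0.00186), while cluster 4 (led by Krt24 and Krt15) gave -0.37 (0.177), beside 20.1% and 0.939% of all genes called. Nr3c1 was also lower in cluster 10 (-0.55, adjusted p = 0.00910).

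In fibroblast-like cells Klf9 was at 866, 939, 761, 770.2 and 720.4 CPM in controls and 677, 745, 578, 434 and 560.3 in expanded libraries. The library of expanded day 1 round 2 lay above the control of day 4, and the other expanded libraries lay below all controls (-0.66, SE 0.11, adjusted p = 0.00136, edgeR). In endothelial-like cells the value was -0.81 (SE 0.17, adjusted p = 0.0101), from 353 to 442 CPM in controls and 140.3 to 393 in expanded libraries. Macrophage-like cells gave -0.94 (SE 0.19, adjusted p = 0.00742), from 146 to 279.8 and from 83.5 to 186 CPM. Within their cluster 11, where 18.7% of all genes were called, the value was -0.66 (0.0265) and within cluster 5 it was -0.14 (0.862). In single mice of cluster 5 (8 control and 11 expanded) Klf9 was called lower by edgeR, and Hsd11b1 was the other call of 7 genes tested. The share of all genes called in that comparison is not given here. Mice of a pool share a reaction, so that call does not measure spread between reactions, as the library value does. Control libraries held 267 ± 46.8 CPM (n = 5) in cluster 9, whose share of the class shrank, and 114 ± 38.8 (n = 4) in cluster 5, whose share grew. The part of make-up in the macrophage-like value was not tested. The 6 fibroblast genes were lower in macrophage-like cells, as above, and 5 of 6 in basal keratinocyte-like cells (528 to 9783 CPM in controls, 106 to 447 in expanded libraries), and their part in the Klf9 values was not tested. In endothelial-like and pericyte-like cells the medians of their sum were 4596 and 4089 and 6260 and 6125 CPM in control and expanded skin.

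Klf9 was also lower in pericyte-like (-0.69, SE 0.16, adjusted p = 0.0131), lymphatic-like (-0.73, SE 0.19, 0.0224) and dendritic-like cells (-0.68, SE 0.16, 0.0368), by edgeR. Without either day 4 library the pericyte-like call (adjusted p = 0.0778 and 0.0786) and the lymphatic-like call (0.107 and 0.111) were lost. The dendritic-like call was lost in 9 of 10 such fits, with the fit without expanded day 1 round 2 as the exception, with values from -0.80 to -0.61 and adjusted p up to 0.120. In the cluster led by Coch and Fmod, Klf9 was 918 ± 90.2 and 740.4 ± 89.0 CPM (n = 5 each; -0.35, adjusted p = 0.0934), and it passed with the round as a block at -0.35 (adjusted p = 0.0254), beside 14.6% of all genes. Over all cells Klf9 fell from 609 ± 67.3 to 335 ± 71.0 CPM (-1.06, SE 0.13, adjusted p = 0.00176, edgeR), with no overlap.

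**Figure D5:**
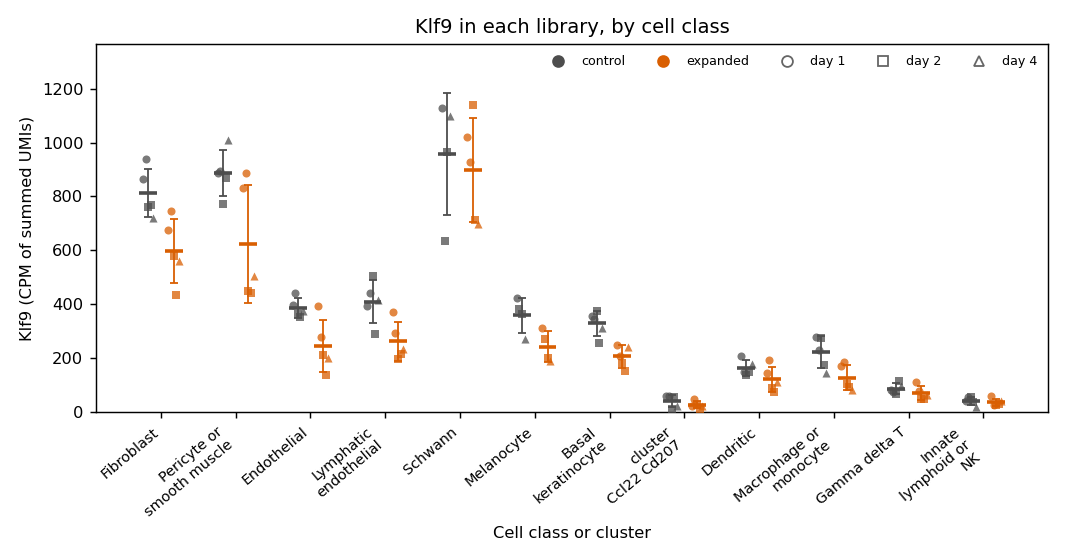
Klf9 level in CPM per library in the 12 named classes, control in grey and expanded in orange. Points are libraries with day as the marker shape, and bars are mean ± SD. In basal keratinocyte-like cells the expanded libraries at 152 to 251 lie below the controls at 257 to 376.

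Tsc22d3 was lower in fibroblast-like cells and passed the threshold in 1 of the 12 named classes. Controls held 146, 242, 103, 159.8 and 115 CPM there and expanded libraries 189.6, 177, 85.8, 60.3 and 82.2. The day 1 expanded libraries lay within the control range and the 3 later ones below it, and the fold change was -0.66 (SE 0.17, adjusted p = 0.0111, edgeR). Over all cells the value was -0.55 (SE 0.13, adjusted p = 0.0155), which was lost without the control (adjusted p = 0.0738) or expanded day 4 library (0.0847).

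Sgk1 was higher in macrophage-like cells, where control libraries held 42.2, 43.6, 37.2, 70.5 and 72.9 CPM and expanded libraries 75.7, 157, 152, 83.0 and 235. The groups did not overlap (1.28, SE 0.26, adjusted p = 0.00804, edgeR). Within single macrophage-like clusters it was not called, at 0.55 (adjusted p = 0.262) in cluster 5 and -0.14 (0.741) in cluster 11, and cluster 5 is the one that grew. In basal keratinocyte-like cells Sgk1 was 460.3 ± 58.0 and 369 ± 11.3 CPM (n = 5 each), a value of -0.36 that missed the threshold (adjusted p = 0.0558) and passed as lower with the round as a block (-0.35, adjusted p = 0.0392). In the cluster led by Coch and Fmod it was 349 ± 78.6 and 478 ± 81.0 CPM (0.43, adjusted p = 0.0862), and the blocked fit called it higher (0.43, adjusted p = 0.0349).

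Zbtb16 was lower in fibroblast-like cells, at 25.6, 43.5, 31.2, 42.4 and 25.2 CPM in controls and 34.6, 26.8, 20.2, 10.7 and 12.9 in expanded libraries. The 2 day 1 expanded libraries overlapped the controls and the later 3 did not (-0.90, SE 0.21, adjusted p = 0.00812, edgeR). In gamma delta T-like cells it was at 40.6 to 101 CPM in controls and 12.6 to 56.9 in expanded libraries, and the value of -1.28 (SE 0.32, adjusted p = 0.182) missed the threshold by edgeR and passed with the round as a block (-1.33, adjusted p = 0.00532, beside 0.822% of all genes), with DESeq2 (adjusted p = 0.0366) and without the filter on low counts. Nearly all of it lay in cluster 19 (led by Il17f and Il17a), 51.1% of control and 45.9% of expanded gamma delta T-like cells. In cluster 19 alone Zbtb16 was at 129 ± 29.7 and 75.9 ± 37.5 CPM (n = 5 each) and was not called (-0.93, adjusted p = 0.107, and -0.96, adjusted p = 0.0509, with the block). In macrophage-like cells Zbtb16 was near the limit of detection, with 60 UMIs in all controls and 7 in all expanded libraries (-3.29, SE 0.76, adjusted p = 0.0136). Cluster 9, which shrank from 51.8% to 4.54% of the class, held 39 of the 60 UMIs in controls. Its level was 3.86 ± 1.70 CPM (n = 5) in control and 3.50 ± 0.698 (n = 2) in expanded libraries. The sum of the 6 fibroblast genes was lower in macrophage-like cells, as above. The parts of make-up and of free RNA in the Zbtb16 value were not tested. Per1, a clock gene that glucocorticoids induce, was not called in any of 11 named classes tested by edgeR, or by DESeq2. At an unadjusted p under 0.05 it was lower in 4, with values of -0.79 in lymphatic-like, -0.72 in pericyte-like, -0.58 in dendritic-like and -0.44 in macrophage-like cells.

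Single mice were compared in 6 classes or unnamed clusters with at least 6 mice per arm, and in some single clusters of these classes. Cells were assigned to a mouse in 54.7% of control and 61.5% of expanded cells of the hashed libraries. Mice of 1 pool share a reaction, so these p-values measure spread between mice and not between reactions. More of all genes were called than in libraries in fibroblast-like (47.6%), macrophage-like (44.7%), dendritic-like (30.5%), basal keratinocyte-like (24.4%) and gamma delta T-like cells (1.96%). In the Coch Fmod cluster fewer were called than in libraries (7.18%). In fibroblast-like cells 5 of 8 genes were called, Hsd11b1 higher (1.65, SE 0.15, adjusted p = 1.22e-08) and Nr3c1 (-0.48), Tsc22d3 (-0.57), Zbtb16 (-0.87) and Klf9 (-0.56) lower. The Tsc22d3 call was lost without the mice of day 2 round 1 (adjusted p = 0.0742) or day 4 (0.0591), and the Zbtb16 call without the mice of day 2 round 1 (0.0696), day 2 round 2 (0.0562) or day 4 (0.0782). In macrophage-like cells 4 of 7 were called, Hsd11b1 (2.26) and Sgk1 (1.23) higher and Klf9 (-1.002) and Per1 (-0.60, SE 0.13, adjusted p = 0.000641) lower.

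In dendritic-like cells of single mice 3 of 6 genes were lower, Tsc22d3 (-0.83), Per1 (-0.83, SE 0.17, adjusted p = 0.000635, edgeR) and Klf9 (-0.64). Without the mice of day 2 round 1 Tsc22d3 (-0.57, adjusted p = 0.166) and Klf9 (-0.33, 0.368) lost the call, and Klf9 also without those of day 2 round 2 (0.0632) or day 4 (0.0738). Basal keratinocyte-like cells had Klf9 (-0.87, adjusted p = 0.000124) and Nr3c1 (-0.40, 0.0139) lower, and Nr3c1 lost its call without the mice of day 1 round 2 (0.149) or day 2 round 2 (0.0777). In the Coch Fmod cluster Hsd11b1 (0.96) and Sgk1 (0.53, adjusted p = 0.0344) were higher, and Sgk1 lost its call without the mice of day 1 round 2 (0.263) or day 4 (0.304). In gamma delta T-like cells Zbtb16 was lower (-1.03, SE 0.28, adjusted p = 0.0482), a call lost without the mice of any 1 of the 4 pools (adjusted p from 0.0696 to 0.233). Fkbp5 was not called in mice in any of these 6, by edgeR or DESeq2, with 0 at an unadjusted p under 0.05. The endothelial-like, lymphatic-like and pericyte-like cells in which it was called in libraries had too few cells per mouse.

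By day, Hsd11b1 was higher in fibroblast-like cells of single mice at each time. Control mice held 74.3 ± 8.06 CPM (SD, n = 3) on day 1, 97.9 ± 59.7 (n = 7) on day 2 and 77.3 ± 13.6 (n = 4) on day 4. Expanded mice held 195 ± 55.7 (n = 2), 232 ± 64.1 (n = 4) and 284 ± 69.0 (n = 4). The fold changes were 1.29 (adjusted p = 0.0315), 1.79 (1.29e-05) and 1.68 (4.63e-05, edgeR), beside 4.28%, 31.6% and 27.9% of all genes called. In basal keratinocyte-like cells Klf9 was lower on day 1 (-1.19, adjusted p = 0.000960) and day 2 (-0.91, 0.0422), beside 18.2% and 0.722% of all genes. There control mice held 354 ± 14.1, 262 ± 49.7 and 298 ± 47.5 CPM (n = 3, 4 and 3) on days 1, 2 and 4, and expanded mice 168 ± 14.5, 134 ± 50.1 and 220.2 ± 42.9 (n = 3, 4 and 3).

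In dendritic-like cells the lower values fell on day 2, for Klf9 (-1.51, adjusted p = 0.000354), Per1 (-1.39, 0.000437) and Tsc22d3 (-1.16, 0.0212), beside 19.9% of all genes called. Per1 in those cells was at 48.1 ± 11.4 CPM in 7 control mice and 20.7 ± 3.12 in 4 expanded mice. On day 4, Sgk1 was higher in dendritic-like cells (1.29, adjusted p = 0.0478) and so was Hsd11b1 (2.76, 0.0372), beside 5.02% of all genes. Cluster 6, 92.5% of expanded dendritic-like cells, held 4 of the 99 Hsd11b1 UMIs of that class in expanded skin and none on day 4. The others lay in the 37 expanded cells of cluster 33 (led by the cell cycle genes Ube2c and Hist1h1b). In cluster 6 alone Sgk1 on day 4 was not called (1.17, adjusted p = 0.106). In fibroblast-like cells Nr3c1 was lower on day 2 (-0.55, adjusted p = 0.00473) and day 4 (-0.57, 0.00493), and Klf9 likewise (-0.66, 0.000602 and -0.55, 0.00518). The test of a difference in effect between days called none of the 8 genes in single mice by edgeR, in 5 classes or clusters (beside 0.14%, 0.097%, 0.0958%, 0.021% and 0.154% of all genes in basal keratinocyte-like, dendritic-like, fibroblast-like and gamma delta T-like cells and the Coch Fmod cluster), the closest being Klf9 in dendritic-like cells (adjusted p = 0.0968). At an unadjusted p under 0.05 it held 5 pairs of gene and class. In libraries that test called none of the 8 in the 12 named classes. It called 0.505% of all genes in melanocyte-like, 0.0312% in innate lymphoid-like and 0.00893% in endothelial-like cells, 0.0224% in the Ccl22 Cd207 cluster and 0% in the other 8, with Tsc22d3 at an unadjusted p under 0.05 in 2 classes, Per1 in 1, Zbtb16 in 3, Sgk1 in 1 and Klf9 in 2. In the unnamed cluster led by Krt25 and Krt28 it called 1 of the 8, Sgk1 (adjusted p = 0.0153), beside 1.81% of all genes, with 1 library per arm on day 2. On day 4 all of these library tests had 1 library per arm. Day itself, with both arms in the fit, was called for none of the 8 in any named class by edgeR. Of all genes it called 2.15% in basal keratinocyte-like, 1.36% in innate lymphoid-like, 0.776% in fibroblast-like, 0.541% in melanocyte-like, 0.185% in lymphatic-like, 0.153% in gamma delta T-like, 0.0657% in Schwann-like, 0.0205% in dendritic-like and 0.00956% in endothelial-like cells and 0% in the other 3. The lowest adjusted p over the 3 days was 0.0611, for Tsc22d3 in fibroblast-like cells, and 5 of the 12 classes had Fkbp5 and 5 had Klf9 at an unadjusted p under 0.05.

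The effect in each class was compared with that in fibroblast-like cells by an exact two-sided permutation test over the libraries, in 66 pairs of gene and class. Arm labels were exchanged over all libraries, across days and rounds, so day and the pairing of the arms were not kept. The smallest p this exchange allows is 0.00794 and was reached by 8 pairs, all with an adjusted p of 0.0655, so none passed. An exchange within days or within rounds, which allows fewer arrangements and a larger smallest p, was not tested. Fkbp5 was among them in lymphatic-like (difference of 1.74 in log2(CPM + 1)), basal keratinocyte-like (1.44), pericyte-like (1.24) and endothelial-like cells (1.09). Hsd11b1 was among them in gamma delta T-like (-1.53) and innate lymphoid-like cells (-1.68), where it was not higher with expansion. The basal keratinocyte-like value was 0.62 and the pericyte-like value 0.79 without the control library of day 2 round 1, where basal keratinocyte-like cells held no Fkbp5 UMI. The other 2 were Sgk1 in lymphatic-like (-0.78) and Zbtb16 in endothelial-like cells (1.09).

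Other genes of the pathway were followed as lists. Of 12 genes of the receptor machinery, 4 were lower and 1 higher in fibroblast-like cells, beside 34.8% of all genes called, with Nr3c2, the mineralocorticoid receptor, at -1.45, the coactivator Ncoa1 at -0.88 and the co-chaperone Stip1 at 0.77. The list's median was -0.19 there and that of all genes 0.01. In endothelial-like cells 3 of 12 were lower (11% of all genes called), the corepressor Nrip1 (-0.84) and the chaperones Hsp90aa1 (-0.81) and Hspa8 (-0.43). In macrophage-like cells 4 of 11 tested were lower (21.9%), among them Hsp90ab1 (-0.78), Hsp90aa1 (-0.78) and Hspa8 (-0.54). Basal keratinocyte-like cells had 3 of 12 lower (14%), Nrip1 (-1.18), Ncoa2 (-0.65) and Hsp90aa1 (-0.58), and pericyte-like cells had 2 (15.7%), Nr3c2 (-1.64) and Hspa8 (-0.74). In lymphatic-like cells 1 was lower (10.2%), Hsp90aa1 (-0.79), and in dendritic-like cells 2 (6.33%), Hsp90aa1 (-0.65) and the co-chaperone Ptges3 (-0.45). Of 9 genes of steroid supply and access, at most 5 were tested in a named class, and there the exporter Abcb1b in macrophage-like cells was the single call (-1.34). In the Coch Fmod cluster Abcb1b was higher (0.59).

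Among 26 other genes that glucocorticoids induce, lower calls outnumbered higher ones in the 7 classes with a call among the 8 genes. Of all genes, 4.88% were called higher and 6.08% lower in endothelial-like, 6.19% and 9.54% in pericyte-like, 16.9% and 18% in fibroblast-like, 9.8% and 12.1% in macrophage-like, 4.96% and 5.25% in lymphatic-like, 7.58% and 6.39% in basal keratinocyte-like, and 2.84% and 3.48% in dendritic-like cells. The same shares stand beside the counts of the lists that follow. Endothelial-like cells had 14 lower and 1 higher of 20 tested, with Angptl4, an inhibitor of lipoprotein lipase, at -2.32, the metabolic kinase Pdk4 at -1.14 and the iron-binding protein Lcn2 at 3.03. The list's median was -0.78 there, beside 0.01 for all genes. Pericyte-like cells had 8 lower and 1 higher of 21, with the metallothionein Mt1 at -1.69, Angptl4 at -1.54 and Lcn2 at 6.43 (median -0.63). Fibroblast-like cells had 7 lower and 3 higher of 23, with Lcn2 at 5.09, the decoy receptor Il1r2 at -1.69 and Ddit4, an inhibitor of growth signalling, at 1.37 (median -0.41). Macrophage-like cells had 6 lower and 2 higher of 22, with Lcn2 at 4.55, Mt2 at -2.03 and Mt1 at -1.72. Lymphatic-like cells had 6 lower and 1 higher of 19, basal keratinocyte-like cells 4 and 1 of 22, and dendritic-like cells 3 and 0 of 20. Lcn2 is also induced by inflammatory signals.

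Of 15 inflammatory genes that glucocorticoids repress, 4 were higher and 3 lower of 14 tested in fibroblast-like cells (34.8% of all genes called), with the collagenase Mmp13 at 3.75, the neutrophil chemokine Cxcl2 at 2.37 and the protease Mmp3 at 1.66. Endothelial-like cells had 0 higher and 5 lower of 12 (11%), among them the adhesion molecule Vcam1 (-2.66), Ccl7 (-2.01) and Cxcl2 (-1.88). Of 15 other clock genes, 4 were higher and 4 lower in fibroblast-like cells (34.8%), with Arntl at -1.18, Hlf at 1.09 and Npas2 at -1.03. Arntl, the partner of CLOCK that acts on E-boxes, was also lower in macrophage-like (-2.43), endothelial-like (-0.79) and basal keratinocyte-like cells (-0.51). Of 14 early response and heat shock genes, which rise with stress and with tissue digestion, none was higher in these 7 classes. Lower calls numbered 13 in lymphatic-like (5.25% of all genes called lower), 10 in endothelial-like (6.08%), 9 in fibroblast-like (18%), 7 in macrophage-like (12.1%), 5 in pericyte-like (9.54%), 2 in basal keratinocyte-like (6.39%) and 0 in dendritic-like cells (3.48%), with Hspa1a at -1.58 in fibroblast-like and -2.39 in macrophage-like cells. Their part in the values of the 8 genes was not tested.

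The genes whose level was most like each of the 8 were ranked by Pearson r of log2(CPM + 1) over 156 class-by-library sums, among 8798 genes. The sums share libraries and depth, so the values are descriptions. Klf9 was followed most closely, by Laptm4a (0.88), Cdc42bpa (0.87) and the thyroid hormone receptor gene Thra (0.86). Sgk1 was followed by Ltbp4 (0.79), Cdh13 (0.77) and Tshz2 (0.77), and Nr3c1 by Herc1, Prrc2c and Rnf125 (0.76, 0.76 and 0.75). Tsc22d3 had Akap13, Celf2 and Gramd1b (0.72, 0.72 and 0.71), and Per1 had Fosl2, Vps37b and Ripor2 (0.66, 0.65 and 0.63). Zbtb16 had Hdgfl3, Farp1 and Slc12a2 (0.66, 0.65 and 0.62), Fkbp5 had Rprd2, Gle1 and Ranbp10 (0.61, 0.61 and 0.59), and Hsd11b1 had Ssh2, Snx18 and Traf3ip3 (0.62, 0.61 and 0.61). Traf3ip3 is a neighbour of Hsd11b1 on the same strand, 19931 bases away. Among the 8 genes themselves the highest r were 0.57 for Zbtb16 with Sgk1 and 0.56 for Sgk1 with Klf9, and Nr3c1 had r of at most 0.42 with any of the other 7, reached with Hsd11b1.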

How the data were processed

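10 mRNA libraries (10x Genomics 3′ v3.1) were used, with 5 per arm. The authors deposited UMI counts per gene and barcode from Cell Ranger 6.1.2 and mm10, per the submitters' processing notes. Antibody counts stood in the same matrices. The title of 1 mRNA library (control day 1 round 2) calls it hashing, and its library type calls it mRNA. Of 55174 barcodes, 47251 had at least 200 genes and 500 UMIs with a mitochondrial share of 10% or less, and of these 1763 doublets called by Scrublet or by hashtags were removed (1.46% to 5.78% per library). Libraries shared at most 0.413% of barcodes. Cells were clustered with scanpy 1.11.5 (2000 variable genes, 30 components, 15 neighbours, Leiden resolution 1) and classes named from marker lists. Mice were assigned by hashtag (Seurat 5.3.0, quantile 0.99). Sums over at least 20 cells of a class in a library, or in a mouse, were tested where present in at least 4 libraries or 6 mice per arm. edgeR 4.0.16 (R 4.3.3, TMM, quasi-likelihood, day as covariate) was fitted over all genes and tested on simulated data, with DESeq2 1.42.0 as an alternative. Replicate numbers are sequencing rounds per the labels, so they pair the arms, and deviations of same-numbered libraries correlated at 0.627 on day 1 and 0.363 on day 2 over 8519 genes. Named genes of a list are the 3 called with the largest change in a class. The genes and lists were chosen with earlier results of these data known. Promoters were read from RefSeq tables, and coordinates from GENCODE vM21. P-values over libraries measure spread between pooled reactions. UMI counts limit the precision of genes with few molecules.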

Additional observations from a re-analysis of the deposited data

Results flagged for a closer look

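Sgk1 in the unnamed cluster led by Krt25 and Krt28 differed between days in its response to expansion, by the edgeR test of that difference (adjusted p = 0.0153, unadjusted p = 0.000108), beside 1.81% of all genes called there. Control libraries held 349 and 363 CPM on day 1, 173 in the single day 2 library with enough cells and 330.2 on day 4, and expanded libraries 276 and 358, 665 and 272. The day 2 and day 4 values each rest on 1 library per arm, so day 1 alone was replicated. Those of day 2 are from different sequencing rounds. No library stood far from the others in any of 36 groups of 4 or 5 libraries examined, where chance alone marks about 1 in 20 groups. These groups were the arms of gene and class pairs with a call in the named classes, and pairs without a call were not examined. Among those left out, Fkbp5 in expanded basal keratinocyte-like cells was at 64.8 CPM in day 1 round 1 and at 14.9 to 24.5 in the other libraries.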

How the results depend on the processing

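Each cluster of a class was also fitted alone, an alternative chosen after seeing the data. Of 92 such values 70 kept their side of the threshold, 18 lost it, 1 gained it and 3 with a call in the class or the cluster changed sign. Those 3 were Fkbp5 in fibroblast-like cluster 20 (1.37), Zbtb16 in cluster 28 (0.084) and Sgk1 in macrophage-like cluster 11 (-0.14). Changes of sign between values that were both not called also occurred and were counted as kept. The cause was not tested. Counts of the 8 genes called moved as follows. In basal keratinocyte-like cells (1) 5% mitochondrial UMIs, resolution 2, DESeq2 and the replicate block each gave 3, median-of-ratios scaling 2 and no filter on low counts 4. In dendritic-like cells (1) 5% mitochondrial UMIs and thinning to 2000 UMIs gave 0 and no filter 3. In gamma delta T-like cells (0) DESeq2, no filter and the block gave 1. Without the filter the Ccl22 Cd207 cluster (0) gave 2, pericyte-like cells (2) gave 4, the Coch Fmod cluster (1) gave 2 and the Krt25 Krt28 cluster (0) gave 1. The block gave 3 in the Coch Fmod cluster and 3 in the Krt25 Krt28 cluster. Thinning gave 1 in lymphatic-like cells (3), and it and 5% mitochondrial UMIs gave 1 in pericyte-like cells. In mice, no filter gave 1 in basal keratinocyte-like (2), 5 in dendritic-like (3) and 3 in gamma delta T-like cells (1), where DESeq2 gave 3. Leaving out 1 library gave counts of 1 to 2 in basal keratinocyte-like, 0 to 1 in dendritic-like cells and the Ccl22 Cd207 cluster, 2 to 2 in endothelial-like, 4 to 5 in fibroblast-like and macrophage-like, 1 to 3 in lymphatic-like, pericyte-like and all cells, 1 to 2 in the Coch Fmod cluster, 0 to 3 in the Krt25 Krt28 cluster and 1 to 1 in the Lrrc15 Tnn cluster, and 0 to 0 in the others. Leaving out 1 pool of mice gave 3 to 5 in fibroblast-like, 4 to 5 in macrophage-like, 1 to 3 in dendritic-like, 0 to 2 in gamma delta T-like and 1 to 2 in basal keratinocyte-like cells and the Coch Fmod cluster. Leaving out each library also kept the direction of all 8 differences from fibroblast-like cells, another alternative chosen after seeing the data. That outcome was fixed in advance. At the smallest p all expanded libraries lie on 1 side of all controls, so leaving out any 1 library cannot reverse the difference. The replicate block, which pairs the arms by round, added 9 calls among 122 and changed no other call. Depth limits Zbtb16 and Hsd11b1 in macrophage-like cells (7 and 46 UMIs in the lower arm).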
